A study of Bos taurus with 12 samples.

Results

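Transcripts of T cells and natural killer (NK) cells were followed in endometrium, the lining of the uterus, of Japanese-Black cows biopsied on day 15 of their cycle. The genes were CD3D and CD3G of the T cell receptor complex, GNLY, PRF1 and KLRB1 of cytotoxic and NK cells, and CD69 and IL2RG of lymphocyte activation and cytokine sensing. They are 7 of the 6644 genes with a symbol on the array and were chosen by name as genes of these cells. All 7 passed the filter on dim probes, as did 5743 genes in all. The 4 groups were CL-side summer, non-CL-side summer, CL-side autumn and non-CL-side autumn, with 3 arrays each. The CL side is the uterine horn next to the ovary with the corpus luteum, the body that secretes progesterone, and the non-CL side is the opposite horn. Summer biopsies were taken in early September and autumn biopsies in mid-November, over a pair of successive years, with no treatment named. From each biopsy, which holds epithelium, stroma, vessels and leukocytes together, 400 ng of total RNA was labelled and hybridised to a 1-colour Agilent bovine array. The labels do not say that the replicates of a group were separate cows, so p-values measure only the spread between these samples, which may be technical.

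T cells recognise antigen through a receptor whose variable chains sit in the membrane with the CD3 chains, which carry the signal inward through the kinases of the Src and Syk families. Cytotoxic T cells and NK cells kill by releasing granules that hold the pore-forming protein perforin, granzymes and, in humans and cattle, the antimicrobial protein granulysin. The endometrium houses both kinds of cell among its epithelium and stroma, and progesterone and the conceptus are known to alter their numbers and activity in ruminants.

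The 4 probes that carry the results on the receptor complex, on NK receptors and on perforin are shown with the letters given in the scanner files, read 5′ to 3′, since each value below is the brightness of 1 such 60-base probe. None has a part set in capitals.
CD3D: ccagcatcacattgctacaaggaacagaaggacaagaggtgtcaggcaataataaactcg
CD3G: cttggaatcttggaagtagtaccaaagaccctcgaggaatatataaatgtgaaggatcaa
KLRB1: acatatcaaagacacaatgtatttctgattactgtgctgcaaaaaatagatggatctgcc
PRF1: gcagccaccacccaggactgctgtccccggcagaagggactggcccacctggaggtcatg
The PRF1 probe has 68.3% G and C, the CD3D probe 45%, the CD3G probe 38.3% and the KLRB1 probe 35%. The longest run of bases shared by any pair of the 7 genes' probes is 8, between CD3D and GNLY. By gene order in RefSeq's ARS-UCD2.0 table, no protein-coding gene lies between CD3D and CD3G, and 3 lie between CD69 and KLRB1.

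Signals are given as log2 of the processed signal relative to the 75th percentile of the same array, and a difference carries limma's standard error (SE). A season difference is summer minus autumn, and a side difference is CL side minus non-CL side. CL-side summer replicate 2, here the dim array, had a 75th percentile of 2007, against 3516 to 4418 for the 11 others. Its correlation with the other arrays had a median of 0.928, and no other array's fell under 0.978. The first slide held 8 arrays, all those of summer and replicate 1 of both autumn groups, and the second slide the other 4 autumn arrays. Season differences below on the first slide, or with slide as a block in the fit, thus lean on autumn replicate 1 of each side. No probe passed the threshold of 0.05 on the adjusted p in any of the 7 comparisons made (0% of 12367 to 12389 probes tested in each by limma). At an unadjusted p under 0.05 there were 1228 probes for the season on the CL side and 139 to 492 in each of the other 6 comparisons. None of the 7 genes therefore passed, and the text below gives their values, their spread and the overlap of the groups.

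The first question was whether the genes differed between summer and autumn in the horn with the corpus luteum. Of the 7 genes, 6 (all but PRF1) had a higher fitted level in summer, and their differences ran from 0.46 to 1.43 on the log2 scale. For CD3D, CD3G, GNLY, CD69 and IL2RG all 3 summer arrays lay above all 3 autumn arrays. Such a lack of overlap in this direction held for 7.97% of all probes. An unadjusted p under 0.05 with the higher level in summer was found for 5 of the 7 (CD3D, GNLY, KLRB1, CD69 and IL2RG), against 6.37% of all probes. The median difference of the 7 was 0.78, and that of all probes was 0.023. It was 0.69 to 1.0 with any 1 of the 6 arrays left out, and 0.13 in the authors' deposited values. In a whole biopsy, more cells of a type and more transcript per cell cannot be told apart. The order within these genes and the other horn are described gene by gene below.

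**Figure D1:**
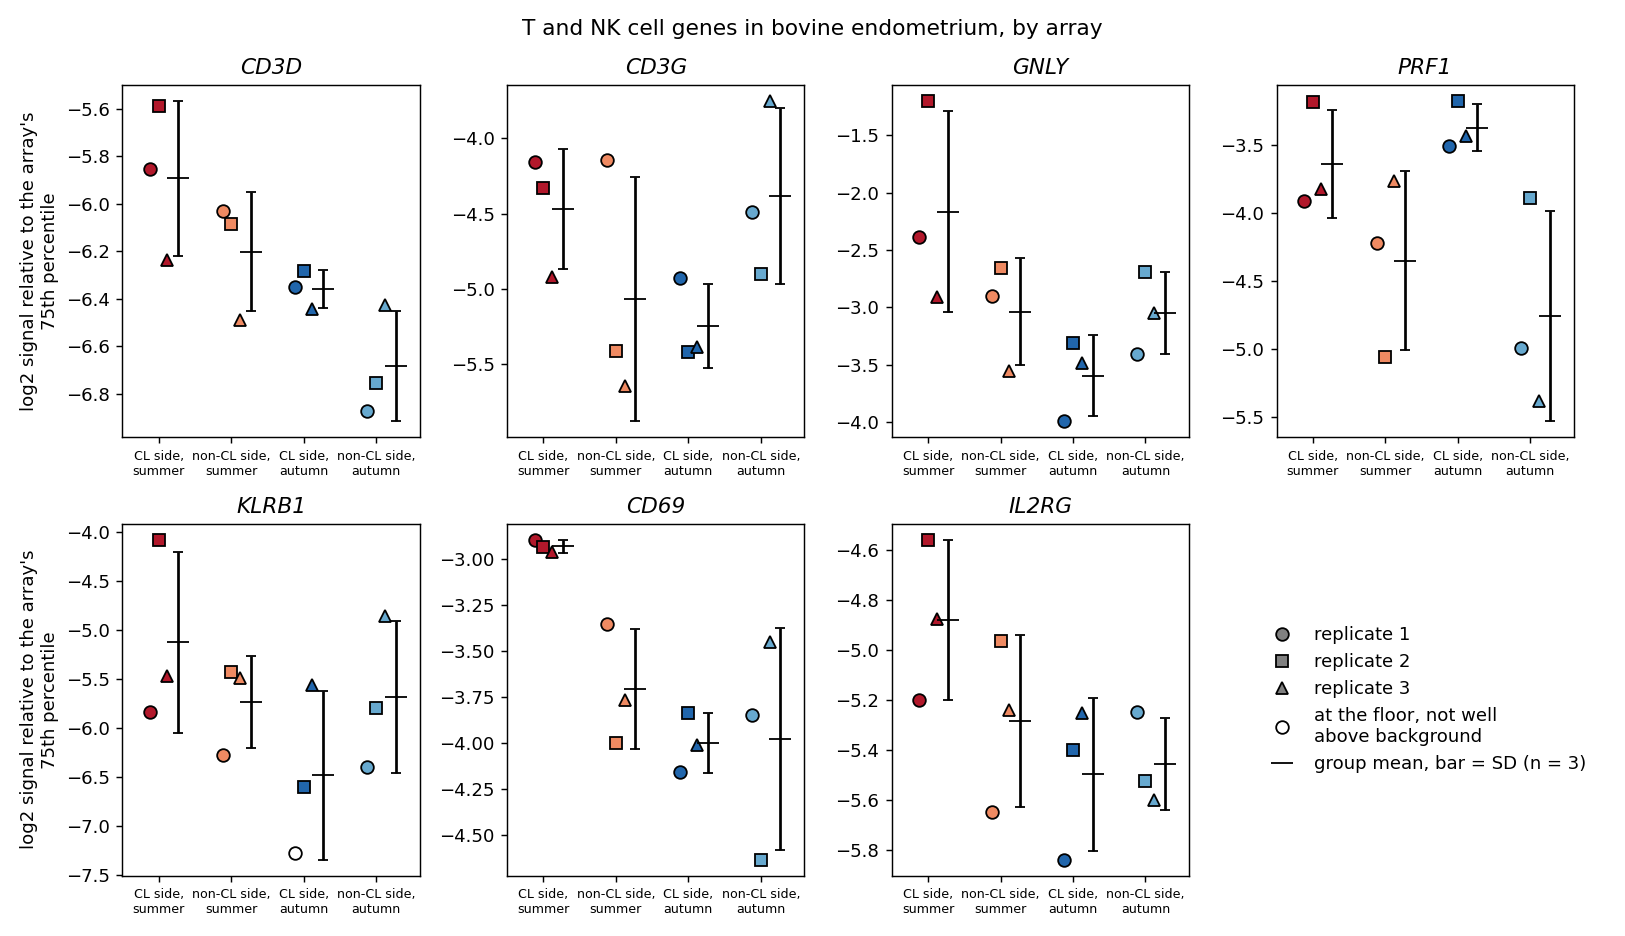
Log2 signal of each gene relative to the array's 75th percentile (y axis, its own range in each panel) for the 3 arrays of each group (x axis). Markers tell the replicate numbers apart, bars give the group mean and SD (n = 3), and the open circle is a spot at the floor that was not well above background. The CD69 values of CL-side summer lie between −2.96 and −2.90, above all other arrays.

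CD3D and CD3G encode the delta and gamma chains of CD3, which pair with CD3 epsilon in the T cell receptor complex. CD3D had on the CL side −5.86, −5.59 and −6.24 in summer, against −6.35, −6.28 and −6.44 in autumn. Its non-CL-side values were −6.03, −6.08 and −6.49 in summer, against −6.87, −6.75 and −6.43 in autumn. Summer values were thus the higher ones in both horns, without overlap on the CL side and with overlap on the non-CL side. The season difference was 0.46 ± 0.20 on the CL side (limma adjusted p = 0.501) and 0.48 ± 0.20 on the non-CL side (limma adjusted p = 1). CD3D was the only one of the 7 genes with a difference of this kind in both horns at an unadjusted p under 0.05. The difference between the horns' season differences was −0.017 ± 0.28. CL-side means stood above non-CL-side means by 0.31 ± 0.20 in summer and 0.33 ± 0.20 in autumn. The order of the group means was CL-side summer, non-CL-side summer, CL-side autumn and non-CL-side autumn, and neighbours in that order overlapped. The CD3D spot was faint, with processed signals of 34.3 to 76.3 over the 12 arrays, though well above background on all of them. In the authors' deposited values its CL-side season difference was −0.13 and its non-CL-side one 0.050, and after quantile normalization the CL-side one was 0.16. Those deposited values put CL-side autumn replicate 1 at −3.86, the highest of all 12 arrays, where the scanner signal gave −6.35.

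CD3G had another order of groups. Its CL-side values were −4.16, −4.33 and −4.92 in summer, against −4.93, −5.42 and −5.39 in autumn. The opposite horn had −4.14, −5.41 and −5.64 in summer, against −4.49, −4.90 and −3.75 in autumn. The summer values were the higher ones on the CL side, narrowly so for the nearest arrays, whereas on the non-CL side the groups overlapped and the highest array of all 12 was an autumn one. The season difference was 0.78 ± 0.41 on the CL side (limma adjusted p = 0.510) and −0.68 ± 0.41 on the non-CL side (limma adjusted p = 1). The difference between them was 1.46 ± 0.58, with an unadjusted p of 0.0296 and a limma adjusted p of 0.999. In autumn all 3 CL-side arrays lay below all 3 non-CL-side arrays (−0.86 ± 0.41, limma adjusted p = 1). A lack of overlap in that direction held for 5.55% of all probes. With 1 array left out the non-CL-side season difference was −1.15 to −0.37, and the side difference in autumn −1.12 to −0.55. In the authors' deposited values the CL-side season difference was 0.33, the autumn side difference −0.33 and the difference between the horns' season differences 0.81. On the first slide the CL-side season difference was 0.46. CD3D and CD3G, although neighbours in the genome and partners in a complex, had a Pearson r of 0.26 over the 12 arrays (0.15 without the dim array).

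The other measured chains of the receptor complex give the setting. CD3E, the epsilon chain that pairs with both, and CD247, the zeta chain, were named here after their values were seen. CD3E had on the CL side −1.47, −1.56 and −2.23 in summer, against −2.04, −2.69 and −2.52 in autumn, which overlap. Its CL-side season difference was 0.66 ± 0.34 and its non-CL-side one 0.069 ± 0.34. CD247 had 0.44 ± 0.32 on the CL side and −0.21 ± 0.32 on the non-CL side, and the first was 0.073 without the dim array. Limma's adjusted p was 0.510 for CD3E and 0.596 for CD247 on the CL side, and 1 for both on the non-CL side.

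Probes for the variable receptor chains themselves, found through their descriptions after the files were read, were 20 in number. Of the 20, 6 were kept, 5 passed the background test on all 12 arrays and 6 on none, and of 10 variable-region probes 1 was kept. Chains and regions are named here as the descriptions word them. A probe for the alpha chain, not described as variable, had 0.61, 0.29 and −0.33 on the CL side in summer, against −0.40, −0.80 and −0.74 in autumn. All 3 summer values were the higher ones, as for 7.97% of all probes, with a difference of 0.83 ± 0.37 (limma adjusted p = 0.501). A second alpha chain probe had −0.33 ± 0.31 on the CL side, so the 2 alpha chain probes disagree in sign. A pair of delta chain probes had 0.58 ± 0.36 and 0.74 ± 0.39, and a beta chain probe 0.44 ± 0.29. The kept gamma chain probe, of the variable region, was not well above background on any of the 3 CL-side autumn arrays and is given no difference. None of these probes passed the threshold, with limma adjusted p-values of 0.501 to 0.691.

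The broader list of the receptor complex and its proximal signalling held 32 genes besides CD3D and CD3G. Of these, 18 were on the array and 13 were measured, 11 of them above 0 in the CL-side season comparison, where 53.0% of all probes were above 0. Their median was 0.44, or 0.25 without the dim array and 0.23 in the authors' deposited values. The 4 brightest were FYN, a Src-family kinase (−0.20), CD247 (0.44), CD48, an adhesion receptor of leukocytes (0.90), and PTPRCAP, which binds the phosphatase CD45 (0.26). In the non-CL-side season comparison 7 of the 13 were above 0, with a median of 0.0018. The list was chosen with results of these data known, and none of its genes passed the threshold.

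GNLY encodes granulysin, a granule protein that permeabilises bacterial membranes. GNLY had on the CL side −2.39, −1.20 and −2.91 in summer, against −3.99, −3.31 and −3.49 in autumn. Its non-CL-side values were −2.90, −2.65 and −3.56 in summer, against −3.40, −2.69 and −3.05 in autumn. The CL-side seasons did not overlap, the non-CL-side seasons did, and the dim array held the highest value. The CL-side season difference of 1.43 ± 0.41 corresponds to 2.70-fold (limma adjusted p = 0.496), and the non-CL-side one was 0.0094 ± 0.41, or 0.39 with slide as a block. The difference between them was 1.42 ± 0.58 (limma adjusted p = 0.999). Without the dim array the CL-side difference was 0.95, and in the authors' deposited values it was 1.27. GNLY was on the array as 2 probes with the same letters, and the second gave 1.46 ± 0.41 on the CL side and −0.076 ± 0.41 on the non-CL side. The brighter exceeded the other by 0.19 ± 0.087 (SD over 12 arrays), with r = 0.993, whereas the brighter one's own SD over the 12 arrays was 0.72. The order of the group means was CL-side summer, non-CL-side summer, non-CL-side autumn and CL-side autumn, and neighbours overlapped.

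PRF1, which encodes perforin, had its widest differences between the horns. In summer it had −3.91, −3.19 and −3.83 on the CL side, against −4.22, −5.06 and −3.76 on the non-CL side. In autumn it had −3.51, −3.18 and −3.43 on the CL side, against −4.99, −3.89 and −5.38 on the non-CL side. The horns overlapped in summer and not in autumn, and the 3 CL-side autumn arrays spanned the narrowest range of its 4 groups. The side difference was 0.71 ± 0.41 in summer (limma adjusted p = 0.984) and 1.38 ± 0.41, or 2.61-fold, in autumn (limma adjusted p = 1, unadjusted p = 0.00656). In autumn a lack of overlap with the CL side higher held for 2.35% of all probes. Over both seasons the side difference was 1.05 ± 0.29, or 2.06-fold (limma adjusted p = 0.999, unadjusted p = 0.00439). It was 0.87 to 1.26 with any 1 of the 12 arrays left out, and 0.93 in the authors' deposited values. PRF1 was also the only one of the 7 genes with a CL-side season difference below 0, at −0.27 ± 0.41. The non-CL-side one was 0.41 ± 0.41. Pearson's r between PRF1 and each of the other 6 over the 12 arrays lay between −0.39 and 0.31.

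KLRB1 encodes a lectin-like receptor of NK cells and some T cells. Its CL-side values were −5.83, −4.08 and −5.47 in summer, against −7.28, −6.61 and −5.56 in autumn. The opposite horn had −6.28, −5.43 and −5.49 in summer, against −6.40, −5.80 and −4.86 in autumn. The seasons overlapped in both horns, the dim array was the highest of the 12, and CL-side autumn replicate 1 was at the floor and not well above background. The CL-side season difference was 1.36 ± 0.57 (limma adjusted p = 0.498) and the non-CL-side one −0.048 ± 0.57. The CL-side difference was 0.83 without the dim array, 0.13 in the authors' deposited values, 0.40 with a floor a factor of 4 higher and 2.11 with slide as a block. With slide as a block the non-CL-side one was 0.71. Both block values lean on the first slide's autumn arrays, of which the CL-side one is the spot at the floor. KLRK1, another lectin-like receptor of NK cells, had a season difference of 1.07 ± 0.62 on the CL side and −0.14 ± 0.62 on the non-CL side. KLRD1, a further one, was not well above background on 2 of the 3 CL-side autumn arrays and is given no difference. Both were named after their values were seen.

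The list of cytotoxic and NK cell genes held 33 genes besides GNLY, PRF1 and KLRB1, of which 17 were on the array and 13 were measured. In the CL-side season comparison 11 of the 13 were above 0, where 53.0% of all probes were. Their median was 0.38, or 0.40 without the dim array and 0.054 in the authors' deposited values. IFNG, interferon gamma, passed the filter only through CL-side summer, so its place above 0 was set by the filter and is no support. The 13 also include KLRD1, given no difference above. The 4 brightest were SRGN, the granule proteoglycan serglycin (0.69), GZMB, granzyme B (0.56 ± 0.92), CTSC, the protease that activates granzymes (−0.34), and CCL5, a chemokine of T and NK cells (1.02 ± 0.64). GZMB was 1.27 without the dim array. Of the 13, 8 were above 0 on the non-CL side, with a median of 0.16. No gene of the list passed the threshold.

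CD69, a membrane lectin that appears on lymphocytes soon after activation and holds them in tissue, was nearly the same on the 3 CL-side summer arrays. CD69 had on the CL side −2.90, −2.94 and −2.96 in summer, against −4.16, −3.83 and −4.01 in autumn. Its non-CL-side values were −3.35, −4.0 and −3.77 in summer, against −3.85, −4.63 and −3.45 in autumn. All 3 CL-side summer arrays lay above all 9 other arrays, which held for 51 of 12272 probes (0.416%) and for no other of the 7 genes. The other 3 groups overlapped one another. The CL-side season difference was 1.07 ± 0.27 (limma adjusted p = 0.496, unadjusted p = 0.00268), and the non-CL-side one 0.27 ± 0.27 (limma adjusted p = 1). The side difference was 0.77 ± 0.27 in summer (limma adjusted p = 0.984) and −0.022 ± 0.27 in autumn. Averaged over both horns the season difference was 0.67 ± 0.18 (limma adjusted p = 0.894). CD69 was little affected by the dim array, without which its CL-side season difference was 1.07, and it was 0.86 in the authors' deposited values. The difference between the horns' season differences was 0.80 ± 0.39 (limma adjusted p = 0.999).

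IL2RG encodes the gamma chain shared by the receptors of interleukin-2 and related cytokines, on which NK and T cells depend. Its CL-side values were −5.20, −4.56 and −4.88 in summer, against −5.84, −5.40 and −5.25 in autumn. The opposite horn had −5.65, −4.97 and −5.24 in summer, against −5.25, −5.52 and −5.60 in autumn. The CL-side seasons did not overlap, narrowly so for the nearest arrays, and the non-CL-side seasons overlapped. The season difference was 0.62 ± 0.24 on the CL side (limma adjusted p = 0.496) and 0.17 ± 0.24 on the non-CL side. In the authors' deposited values the CL-side one was 0.061, and without the dim array it was 0.46. The deposited values put CL-side autumn replicate 1 at −3.99, where the scanner signal gave −5.84.

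The list of activation and gamma-chain cytokine genes held 30 genes besides CD69 and IL2RG, of which 14 were on the array and 8 were measured. All 8 were above 0 in the CL-side season comparison, where 53.0% of all probes were. Their median was 0.53, or 0.29 without the dim array and 0.040 in the authors' deposited values. The 4 brightest were CISH, a feedback inhibitor of cytokine signalling (0.075), CD44, the hyaluronan receptor (0.41), STAT5B, a transcription factor downstream of the gamma chain (0.021), and IL2RA, the alpha chain of the interleukin-2 receptor (0.66 ± 0.25, or 0.34 without the dim array). Of the 8, 7 were above 0 on the non-CL side, with a median of 0.16, and none passed the threshold in either horn.

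**Figure D2:**
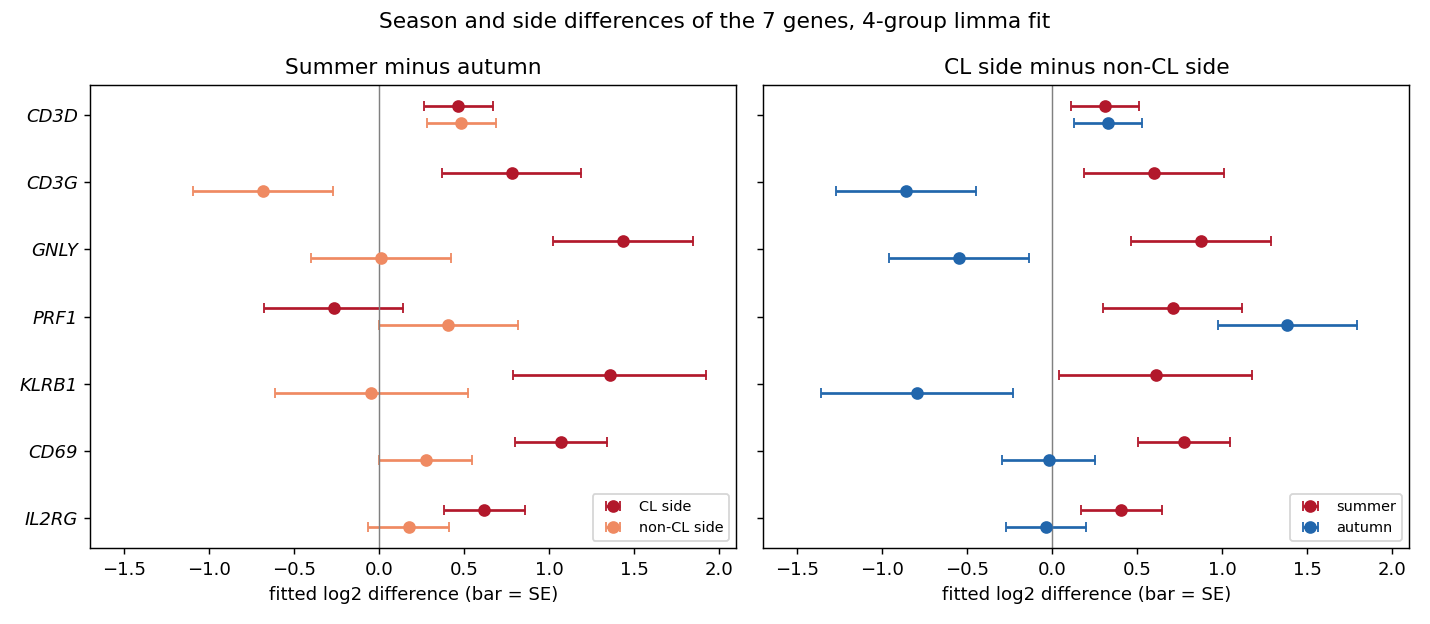
Fitted log2 differences of the 7 genes with their SE (x axis), summer minus autumn in each horn (left) and CL side minus non-CL side in each season (right). On the CL side 6 of the 7 season differences lie above 0 and PRF1 at −0.27, and in summer all 7 side differences lie above 0, from 0.31 to 0.87.

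Season differences on the non-CL side were above 0 for 5 of the 7 genes, against 49.9% of all probes. They ran from −0.68 for CD3G to 0.48 for CD3D. The median of the 7 was 0.17 and that of all probes −8.2e-05. In no gene did the groups fail to overlap, against 2.62% of all probes with summer higher and 3.45% with summer lower. The difference between the horns' season differences was above 0 for 5 of the 7, against 53.9% of all probes. Its median was 0.80, and its smallest limma adjusted p among the 7 was 0.999. Averaged over both horns, all 7 season differences were above 0, against 52.7% of all probes, though CD3G was at 0.047 and PRF1 at 0.069. The median of the 7 was 0.47 (limma adjusted p of 0.894 to 0.992). These comparisons share arrays.

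The second question was whether the horns differed within a season. In summer all 7 genes had higher fitted levels on the CL side, by 0.31 to 0.87 with a median of 0.61, where 48.9% of all probes were above 0 and their median was −0.0060. CD69 alone had horns that did not overlap in summer, which held with the CL side higher for 1.88% of all probes. Without the dim array the summer side differences were 0.39 for GNLY, 0.082 for KLRB1, 0.25 for IL2RG, 0.16 for CD3D, 0.53 for CD3G, 0.78 for CD69 and 0.48 for PRF1. In autumn 2 of the 7, PRF1 and CD3D, were above 0 and 5 below, where 42.6% of all probes were above 0. The median of the 7 was −0.040 and that of all probes −0.037.

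Arrays of the same number in a season were compared horn by horn. In summer all 3 pairs had the higher signal on the CL side for CD3D, GNLY, KLRB1, CD69 and IL2RG, and 2 of 3 for CD3G and PRF1, where 11.3% of all probes had all 3 pairs higher. In autumn all 3 pairs did so for PRF1, 2 of 3 for CD3D and IL2RG, 1 of 3 for CD69 and none for CD3G, GNLY and KLRB1. Of all probes, 8.75% had the CL side higher in all 3 autumn pairs and 17.3% lower in all 3. Higher in all 3 summer pairs and lower in all 3 autumn pairs, as in GNLY and KLRB1, were 2.04% of all probes. CD3G missed a full split between the seasons by summer number 1, at −0.016. PRF1 was higher on the CL side in 5 of 6 pairs, by 0.31, 1.88 and −0.061 in summer and by 1.48, 0.71 and 1.95 in autumn. Within the first slide the only autumn pair, number 1, gave side differences of 1.48 for PRF1, 0.52 for CD3D, −0.44 for CD3G, −0.59 for GNLY, −0.59 for IL2RG, −0.88 for KLRB1 and −0.31 for CD69.

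**Figure D3:**
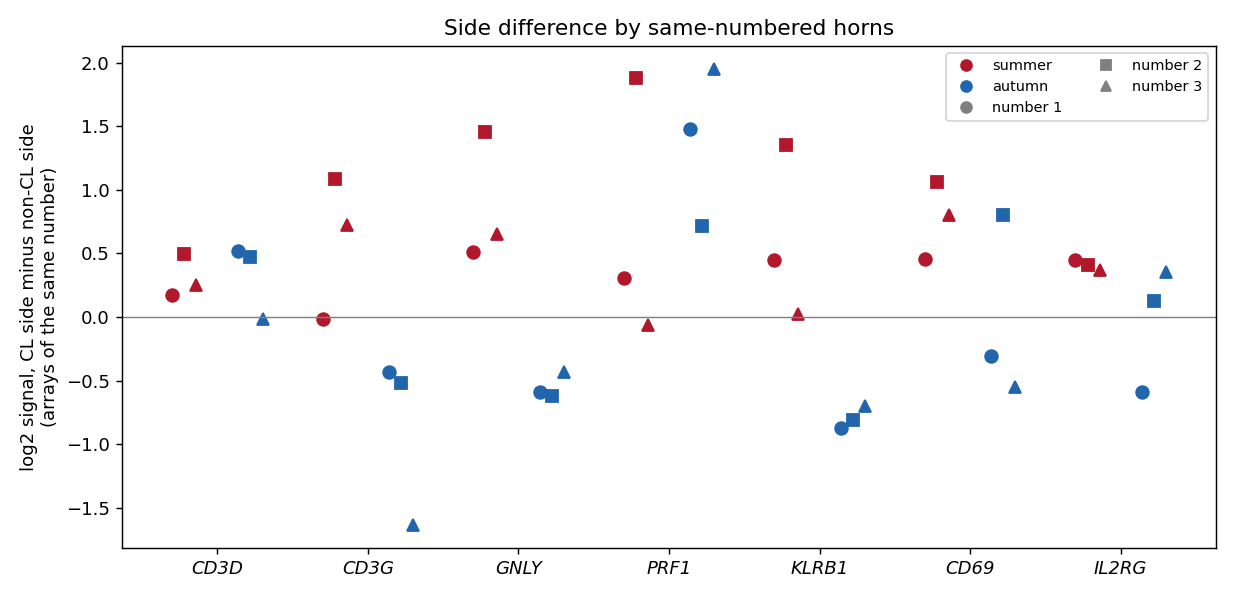
Log2 signal of the CL-side array minus that of the non-CL-side array of the same number (y axis) for each gene (x axis), 3 pairs in summer and 3 in autumn, with markers for the numbers. GNLY and KLRB1 lie above 0 in all 3 summer pairs and below 0 in all 3 autumn pairs, and PRF1 lies above 0 in all 3 autumn pairs.

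The receptor complex genes were set apart from the other 5 by their mean deviation from the 12-array mean, computed per array. CD3D and CD3G together gave 0.53, 0.58 and −0.040 on CL-side summer arrays, against −0.10, −0.31 and −0.38 on CL-side autumn arrays. GNLY, PRF1 and KLRB1 gave 0.20, 1.43 and 0.18 in summer, against −0.68, −0.12 and 0.089 in autumn. CD69 and IL2RG gave 0.42, 0.72 and 0.55 in summer, against −0.53, −0.15 and −0.16 in autumn. Each of the 3 sets was higher on every CL-side summer array than on any CL-side autumn array. The dim array was the highest of the 3 in each set. Such a split held for 7.97% of single probes, and no share was computed for averages of several probes. On the non-CL side the receptor complex and cytotoxic sets overlapped between the seasons. CD69 and IL2RG together narrowly did not, with −0.037 to −0.016 in summer, against −0.61 to −0.060 in autumn. Taken singly, each of these genes overlapped there. Over all 7 genes the deviation was 0.22 to 0.98 on CL-side summer arrays and −0.17 to 0.025 on non-CL-side summer arrays. It was −0.47 to −0.12 on CL-side autumn arrays and −0.36 to 0.033 on non-CL-side autumn arrays.

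Marker lists of other cell types moved beside these genes, and their part in the result was not tested. In the CL-side season comparison the medians were 0.54 for B and plasma cells (9 of 9 genes above 0), 0.81 for granulocytes and mast cells (7 of 8), 0.71 for epithelium (14 of 16) and −0.86 for stroma (1 of 12). They were −0.33 for macrophages and dendritic cells (5 of 16), 0.015 for endothelium (8 of 14), 0.26 for red blood cells (3 of 3) and −0.028 for lymphocyte homing (8 of 16). The epithelium score, the mean deviation of its 16 markers, was −0.14 to 1.16 on CL-side summer arrays, against −0.32 to −0.27 on CL-side autumn arrays. The summed scaled signal of these markers was 44.8 to 94.2 in summer, against 41.0 to 44.8 in autumn. For stroma the score was −0.88 to 0.14 in summer, against 0.26 to 0.73 in autumn, with a summed signal of 82.2 to 150.1 in summer and 159.1 to 193.0 in autumn. The dim array was the highest of all 12 in epithelium, in B and plasma cells and in granulocytes and mast cells. It was the lowest in stroma and in macrophages and dendritic cells. The epithelium score was 1.16 on the dim array and 0.047 and −0.14 on the other CL-side summer arrays. All 3 were above the CL-side autumn arrays in this score and in the mean deviation of the 7 genes. Taken singly, KLRB1 and PRF1 overlapped between these groups. Left without that array, the medians were 0.49 for epithelium, −0.69 for stroma, 0.33 for B and plasma cells and 0.86 for granulocytes and mast cells. They were −0.023 for macrophages and dendritic cells and 0.079 for red blood cells. As a check of the tissue label, epithelial EPCAM lay between 2.91 and 4.34 and stromal COL3A1 between 3.39 and 5.99 over the 12 arrays.

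**Figure D4:**
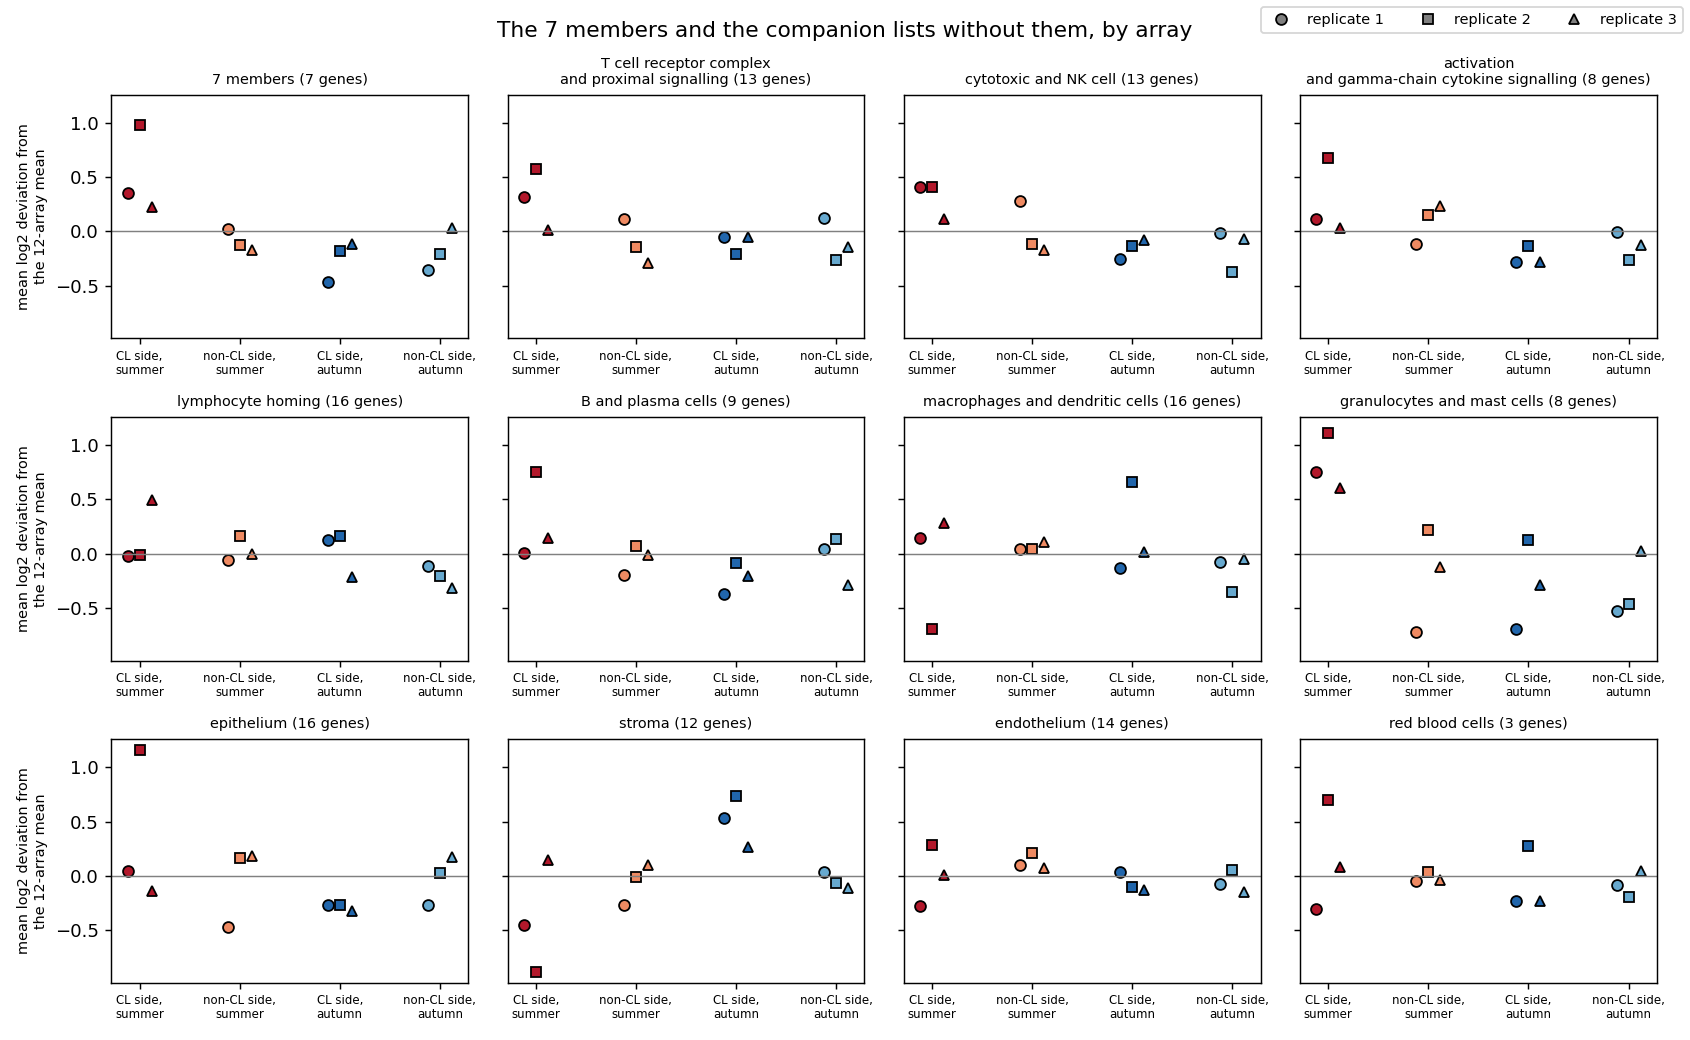
Mean log2 deviation from the 12-array mean (y axis) of the 7 genes and of each companion list without them, for the 3 arrays of the 4 groups (x axis), with markers for the replicate numbers. The CL-side summer arrays hold the 3 highest values in the panel of the 7 genes, from 0.22 to 0.98, and the dim array (replicate 2) is the highest in epithelium at 1.16.

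Other genes were ranked by how closely they followed the mean of the 7 over the 12 arrays, which is a description of these arrays and rests on shared hybridisations. Of 5655 genes the closest were FAM110A (Pearson r = 0.92), UGCG (0.91), CCDC68 (0.91), AQP3 (0.91) and TRIM8 (0.90). Without the dim array, r of these 5 genes was 0.87, 0.72, 0.72, 0.72 and 0.71 in that order. AQP3 averaged −1.82 ± 2.22 on CL-side summer arrays, −3.86 ± 0.40 on non-CL-side summer, −4.43 ± 0.28 on CL-side autumn and −4.21 ± 0.19 on non-CL-side autumn arrays (SD, n = 3 each).
For single genes the closest were GPR183 (0.90) and SLA (0.90) for CD69, IL4R (0.91) and TP53I11 (0.89) for IL2RG, and CCDC68 (0.94) and STX7 (0.94) for GNLY. They were ACSM1 (0.96) and B3GNT3 (0.96) for KLRB1, POLR1B (0.85) and BIN1 (0.79) for PRF1, NUAK1 (0.86) for CD3D, and HPRT1 (0.85) and LIN7C (0.81) for CD3G. No gene was among the closest for more than 1 of the 7, and the values without the dim array stayed between 0.76 and 0.94. Within the 7 the closest pair was GNLY and KLRB1 (r = 0.73, or 0.49 without the dim array).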

How the data were processed

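Samples were grouped by their titles. Scanning used Feature Extraction, version 9.5.1.1 per the file headers (9.5 in the submitters' processing notes). The deposited processed signal is a linear intensity, already background-subtracted within the array per the file headers. Deposited mean and background intensities served the normexp alternative alone. A deposited table of log2 values by the authors, whose exact scaling and handling of low signals are unknown, served as another. Its columns had 75th percentiles of 0.0048 to 0.0115, so they were centred near the array's 75th percentile, as the values here were. Its columns had medians of −2.79 to −2.61 and r of 0.933 to 0.961 with the scanner values.

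Signals of the 15208 non-control probes were scaled by the array's 75th percentile, given a floor of −7.28 (2.06% of kept values) and log2-transformed, with 466 outlier-flagged values left out. Probes had to be well above background on every array of a group, and 12404 were kept. A faint gene could thus pass through the group where it was high, and the list counts may include such genes. A gene's brightest probe stood for it. The files or RefSeq's ARS-UCD2.0 table named 6960 probes. Coordinates are left out because the array's build is unknown here.

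Limma 3.58.1 (R 4.3.3) fitted 4 group means to 12 arrays with 8 residual degrees of freedom, two-sided, with p-values adjusted by Benjamini-Hochberg across the kept probes. The fit was run on simulated data with independent noise. That run had no dim array, slide effect, pairing or floor, and so says nothing about these. For the season over both horns, same-numbered arrays were averaged first, leaving 4 degrees of freedom. The 4-group fit leaves replicate numbers out. The labels do not say whether same-numbered horns are of 1 cow. Between horns, deviations of same-numbered arrays correlated at 0.15 to 0.52 and of differently numbered ones at −0.42 to 0.077. Since each group was centred, an array's covariances with the 3 arrays of the other horn sum to 0, so part of this contrast is built in. In autumn, number 1 of both horns was on the first slide and numbers 2 and 3 on the second. Same-numbered horns were compared as pairs above, but these values cannot settle whether they are of 1 cow. Between seasons same-numbered arrays correlated at 0.11 to 0.35, with no other pairs computed, which cannot show pairing. Fits with the numbers as a block were alternatives. The SE and p-values of side differences above come from the fit without them. The number of arrays limits the precision.

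The 7 genes and all lists were chosen with earlier results of these data known. Named were all 7, each list's 4 brightest genes, and the genes most like the mean of the 7 (5 genes) or like each (2 genes), of which 1 is not reported here. Alternatives varied background correction, scaling, filter, floor, source of values, slide, pairing, array weights and the arrays included.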

Additional observations from a re-analysis of the deposited data

Results flagged for a closer look

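The side difference of GNLY and KLRB1 pointed opposite ways in the 2 seasons in every same-numbered pair of arrays. For GNLY the CL side minus the non-CL side was 0.51, 1.45 and 0.65 in summer and −0.59, −0.62 and −0.44 in autumn, and the summer difference exceeded the autumn one by 1.42 ± 0.58. For KLRB1 it was 0.45, 1.35 and 0.023 in summer and −0.88, −0.81 and −0.70 in autumn, the first of these with the CL-side spot at the floor, and the summer difference exceeded the autumn one by 1.40 ± 0.80. Limma's test of the difference itself had an adjusted p of 0.999 for both and an unadjusted p of 0.0338 for GNLY and 0.110 for KLRB1. Without the dim array the values were 0.94 for GNLY and 0.88 for KLRB1, and in the authors' deposited values 1.26 and 0.24. The autumn side difference of KLRB1 was 0.22 in the authors' deposited values and −0.14 with a floor a factor of 4 higher. The split in all 6 pairs held for 2.04% of all probes.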

How the results depend on the processing

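Over the alternatives run, 711 of 746 values of single genes kept their sign and none had an adjusted p under 0.05. The cause of the sign changes was not tested. The CL-side season difference of CD3D was −0.13 with the authors' values. For CL side minus non-CL side in autumn, the authors' values gave 0.091 for CD69, 0.38 for IL2RG and 0.22 for KLRB1, array weights 0.12 for CD69 and 0.0094 for IL2RG, normexp 0.020 and quantile normalization 0.047 for IL2RG. Leaving out 1 array gave −0.35 to 0.24 for CD69 and −0.16 to 0.13 for IL2RG. The non-CL-side season difference of GNLY was −0.037 after quantile normalization, −0.022 after median scaling, −0.17 with array weights, −0.033 over both probes, 0.39 with slide as a block, 0.37 on the first slide and −0.18 to 0.27 with 1 array left out. That of KLRB1 was 0.0037 with normexp, 0.71 with slide as a block, 0.67 on the first slide, 0.088 with array weights and −0.41 to 0.36 with 1 array left out. That of IL2RG was −0.038 on the first slide, and that of CD69 −0.057 to 0.53 with 1 array left out. The difference between CD3D's season differences was 0.15 with normexp and −0.17 to 0.15 with 1 array left out. The median of the 7 genes moved with the authors' values to 0.13 for the CL-side season, 0.22 for the autumn sides, 0.24 for the difference between the horns' season differences and 0.014 for the season over both horns. A floor a factor of 4 higher, which takes in the faint genes, gave 0.40, 0.54 and 0.13 for the CL-side season, the difference between the horns and the season over both horns, and the first slide −0.44 for the autumn sides. With 1 array left out, that median ran from −0.35 to 0.056 for the autumn sides and from 0.53 to 1.12 for the difference. Probes past the threshold numbered 1 for the non-CL-side season on the first slide. With 1 array left out they numbered 0 to 7 for the CL-side season, 0 to 6 for the autumn sides, 0 to 2 for the season over both horns, and 0 to 1 for the summer sides, the sides over both seasons and the difference. The highest of these, 7 and 6, came without CL-side autumn replicate 3. With the replicate block 0 probes passed and it changed no call. The block within a season for the difference between the horns was added after seeing the data. The season over both horns was not run with slide or array weights.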

Other observations

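IL15, a cytokine that sustains NK cells through the gamma chain, was named after its values were seen. It had −5.49, −5.41 and −6.07 on the CL side in summer, against −6.57, −6.80 and −6.79 in autumn. These do not overlap, which held in this direction for 7.97% of all probes, and autumn replicate 2 was not well above background. The season difference was 1.06 ± 0.34 on the CL side and 0.14 ± 0.34 on the non-CL side (limma adjusted p = 0.496 and 1). The CL-side value was 0.94 without the dim array and 0.0030 in the authors' deposited values. For CD3E and for KLRK1, an activating NK cell receptor, the array numbered 1 was the highest of its group in all 4 groups, which was also noticed after the values were seen.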
